A study of Mus musculus with 16 samples.

Results

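The collagen chain genes were examined in RNA of thioglycollate-elicited peritoneal macrophages from SR-uPA+/0 and nontransgenic mice. Every probe of the array whose platform gene symbol reads Col, a number, the letter a and a number was taken, which gave 53 probes for 37 genes, among 24607 probes and 15161 gene symbols. The rule reads gene symbols only, but collagens were taken up with earlier results of these data known. RNA was profiled on Illumina Mouse Ref-8 v1.1 BeadChips, arrays of bead-bound probes read as 1 fluorescence intensity per probe. The SR-uPA+/0 group held 6 female Apoe-/- animals carrying a transgene that, per the labels, overexpresses urokinase plasminogen activator (uPA) in macrophages, and the nontransgenic group held 6 female Apoe-/- animals without it. All 12 lacked apolipoprotein E, ate a Western diet for 10 weeks from 5 weeks of age, received thioglycollate in the peritoneum and gave cells 5 days later, of which those that had adhered to plastic after 2 h were kept. The promoter and the cells in which the transgene is active beyond macrophages are not given in the labels. A pool of the SR-uPA+/0 RNA and a pool of the nontransgenic RNA were each hybridised 2 times, and these 4 arrays are technical repeats that entered no test.

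Collagens are secreted matrix proteins built from chains that wind around one another into a stiff helix inside the endoplasmic reticulum, where prolyl hydroxylases and the chaperone Serpinh1 act on them before export. Fibrillar collagens assemble into the cable-like fibrils of connective tissue, basement membrane collagens form sheet-like networks under epithelia and vessels, and type VI collagen forms beaded filaments around cells. Fibroblasts are the usual producers of fibrillar collagen. Human macrophages have been reported to transcribe several collagen genes, type VI among them, whereas fibrillar collagen is not a usual product of this cell type.

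The series as a whole sets the limits of what follows. The deposited intensities of each array had a noise limit of 57.0 to 57.1 units, set for each array at 1.64 times the root mean square of its negative readings, and a probe was tested if it exceeded this on at least 3 of the 12 animals. Plau, which encodes uPA, has 1 probe. It read 1660 ± 972 units in SR-uPA+/0 and 1825 ± 1103 units in nontransgenic animals (SD, n = 6 each), so this probe did not separate the labels. Whether the probe covers the transgene's transcript is not given in the labels, so overexpression of uPA could not be judged from it. Macrophage markers were above noise for 7 of 8 genes on the array, and only Msr1 was not. SR-uPA+/0 animals 1 and 6 stood apart, with median correlations to the other arrays of 0.969 and 0.973 against 0.976 or more for the rest. Calls that ended without both are named below. Which array lay on which chip is not given in the labels. In bulk RNA, fewer collagen-producing cells and less collagen RNA per cell cannot be told apart.

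Promoter sequences are shown for the chains on which the results turn, from RefSeq on GRCm38.p6. Each window runs from 250 bases before to 50 bases after a listed transcription start, 5′ to 3′ on the gene's strand. The fibrillar chain gene Col5a1 (chr2:27886175-27886474, plus strand) had the smallest adjusted p among the tested collagens, and Col3a1 (chr1:45311288-45311587, plus strand) was lost to the noise in SR-uPA+/0 animals. Col6a1 (chr10:76725995-76726294, minus strand) and Col6a2 (chr10:76623581-76623880, minus strand) are neighbours with no protein-coding gene listed between them, and their probes behaved differently. Col18a1 (chr10:77166481-77166780, minus strand) is the basement membrane chain that fell. Col4a2 (chr8:11312555-11312854, plus strand) starts head to head with Col4a1 on the opposite strand, and the windows of this pair share 78 bases. Capitals mark 3 short promoter motifs on either strand, which are the CCAAT box, the GC box (GGGCGG) and the TATA box in the form TATAAA. No marked motifs overlap.
Col5a1: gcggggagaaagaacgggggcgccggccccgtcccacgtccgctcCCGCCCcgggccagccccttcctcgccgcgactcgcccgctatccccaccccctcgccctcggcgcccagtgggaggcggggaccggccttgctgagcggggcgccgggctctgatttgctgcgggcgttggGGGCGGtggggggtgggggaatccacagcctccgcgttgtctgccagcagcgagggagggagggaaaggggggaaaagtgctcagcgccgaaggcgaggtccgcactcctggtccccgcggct
Col3a1: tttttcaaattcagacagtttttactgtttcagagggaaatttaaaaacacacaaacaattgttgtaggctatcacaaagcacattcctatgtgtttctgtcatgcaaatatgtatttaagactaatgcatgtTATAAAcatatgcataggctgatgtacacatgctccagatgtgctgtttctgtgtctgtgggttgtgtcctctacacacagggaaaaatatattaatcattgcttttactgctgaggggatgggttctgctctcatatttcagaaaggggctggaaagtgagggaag
Col18a1: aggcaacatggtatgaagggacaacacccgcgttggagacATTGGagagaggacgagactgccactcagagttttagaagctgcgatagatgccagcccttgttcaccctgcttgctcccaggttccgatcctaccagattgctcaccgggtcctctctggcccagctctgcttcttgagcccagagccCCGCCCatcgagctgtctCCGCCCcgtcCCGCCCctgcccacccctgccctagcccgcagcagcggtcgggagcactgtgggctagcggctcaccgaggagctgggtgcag
Col6a1: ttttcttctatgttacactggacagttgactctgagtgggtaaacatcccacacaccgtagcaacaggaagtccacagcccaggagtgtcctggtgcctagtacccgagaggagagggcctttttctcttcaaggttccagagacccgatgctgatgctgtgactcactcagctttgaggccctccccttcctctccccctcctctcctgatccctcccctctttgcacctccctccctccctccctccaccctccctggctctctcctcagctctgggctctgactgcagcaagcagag
Col6a2: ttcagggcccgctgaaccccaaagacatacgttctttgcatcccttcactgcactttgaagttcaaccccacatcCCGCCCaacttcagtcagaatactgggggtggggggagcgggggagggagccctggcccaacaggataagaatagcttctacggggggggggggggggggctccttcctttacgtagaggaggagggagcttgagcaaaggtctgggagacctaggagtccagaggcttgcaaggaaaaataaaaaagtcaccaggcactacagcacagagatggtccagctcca
Col4a2: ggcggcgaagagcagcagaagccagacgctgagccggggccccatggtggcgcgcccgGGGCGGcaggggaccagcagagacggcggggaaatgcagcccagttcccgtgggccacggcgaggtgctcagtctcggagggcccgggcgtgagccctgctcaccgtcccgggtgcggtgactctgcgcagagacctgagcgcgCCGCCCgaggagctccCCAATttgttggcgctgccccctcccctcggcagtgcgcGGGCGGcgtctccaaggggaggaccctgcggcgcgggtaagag

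Of the 14 tested collagen genes 12 had an entry in the promoter table, with 14 windows in all. CCAAT, the core of the site bound by NF-Y, was found in 5 of these windows, against 37.4% of all 32851 windows of the table. GGGCGG, the core of the site bound by Sp1, was found in 7, against 35.7%. TATAAA was found in 3, against 13.6%. Col6a1 held none of these motifs in its window. Col6a2 held 1 GGGCGG in the window shown and 3 in the window of its other listed start. The window of the other listed Col18a1 start, not shown, held none of these motifs. These matches describe the letters of the windows and are not evidence of binding.

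Most collagen chains were not measurable in these cells. Of the 53 probes 15 (28.3%) passed the noise filter and stood for 14 genes, against 42.8% of all probes. Only 4 probes exceeded noise on all 12 animals, namely both bright Col6a1 probes, Col6a2 and Col4a2. A further 27 probes exceeded noise on no animal and 11 on 1 or 2 animals, and 23 genes had no tested probe. Just outside the filter, Col4a5, a basement membrane chain, exceeded noise on 0 of 6 SR-uPA+/0 and 2 of 6 nontransgenic animals, with means of 10.3 and 50.7 units. Col1a2, the partner chain of Col1a1 in type I collagen, exceeded noise on 0 of 6 and 1 of 6 animals, so its level was not detectable with this probe. Just inside, Col17a1, a transmembrane collagen of epithelial anchoring, exceeded noise on 2 of 6 and 1 of 6 animals.

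Collagen transcripts were lower in SR-uPA+/0 macrophage preparations for 6 probes of 5 genes, and no collagen probe was higher. The genes were Col1a1, Col3a1 and Col5a1 of the fibrillar class, Col6a1 of the beaded filament class on both its tested probes, and Col18a1 of the basement membrane class. Fitted with limma across all 10521 tested probes, 66 probes were called lower, a background of 0.627%, and 11 higher, a background of 0.105%. The other 9 tested collagen probes did not pass. Before adjustment 8 collagen probes were lower at p under 0.05, against 4.51% of tested probes, and 12 of 15 had a difference below 0, against 47.9%. Every SR-uPA+/0 animal lay below every nontransgenic animal for the same 6 probes, where 0.732% of all tested probes were lower without overlap. Of the tested members, Col3a1 passed the filter through nontransgenic animals alone, which by itself forces a difference. Leaving Col3a1 aside, the count was 5 probes of 4 genes. When no filter was applied, 4 of the 53 collagen probes were called lower, beside 35 of all 24607. Col3a1 and the first Col6a1 probe were lost in that fit. Without SR-uPA+/0 animals 1 and 6 together 5 were called, Col3a1 being lost. After leaving out the 5 arrays on one side of the first principal component (SR-uPA+/0 1 and 3, nontransgenic 1, 2 and 3), a choice made after the data were seen, only Col5a1 was called, beside 9 lower calls among all probes.

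**Figure D1:**
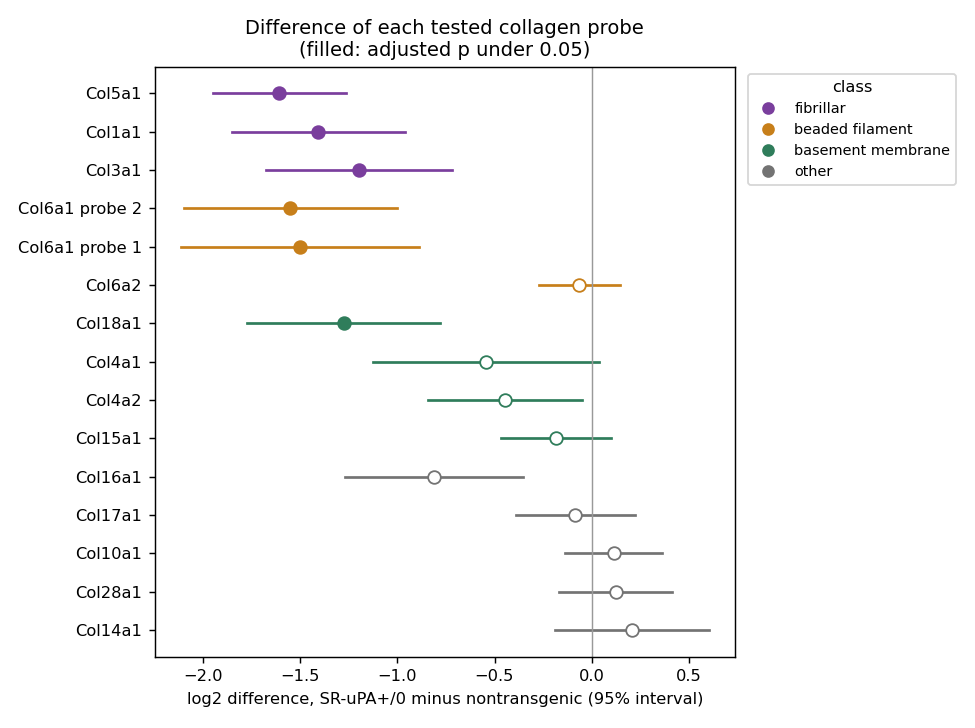
Log2 difference, SR-uPA+/0 minus nontransgenic, of the 15 tested collagen probes with the 95% interval from limma (6 animals per genotype), by class; filled points had an adjusted p under 0.05. All 3 fibrillar probes, both Col6a1 probes and Col18a1 lie left of 0 with filled points, and the Col6a2 point lies at -0.06.

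Of the 3 tested fibrillar chains Col5a1 and Col1a1 fell with readings above noise in both genotypes, and Col3a1 fell with none above noise in SR-uPA+/0 animals. Col5a1, the type V chain that helps start fibrils and limits their width, read 30.9, 73.8 and 101 units (lowest, median and highest) in SR-uPA+/0 animals, against 250.3, 441 and 637 units in nontransgenic animals. Every SR-uPA+/0 animal lay below every nontransgenic one, and 5 of 6 SR-uPA+/0 readings exceeded noise. The log2 difference was -1.61 (95% interval -1.95 to -1.27, SE 0.16; exact permutation p = 0.00216, the lowest value possible with 6 animals per genotype; adjusted p = 6.21e-05 by limma). On this scale, which adds 96.9 units to a typical value, that is 3.05-fold lower. Since the added amount is close to the readings themselves, the scale understates the change of dim probes. The SR-uPA+/0 pool read 159 and 146 units and the nontransgenic pool 476 and 478 units. The genotypes kept their order there, but the pools held RNA of these same animals and are no independent evidence.

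Col1a1, the main chain of type I collagen, the bulk collagen of tendon, skin and scar, read 44.5, 140 and 322 units (lowest, median and highest) in SR-uPA+/0 animals, against 406, 536 and 590 units in nontransgenic animals. The groups did not overlap, with SR-uPA+/0 animal 2 the highest of its genotype and nontransgenic animal 3 the lowest of its own. The log2 difference was -1.41 (95% interval -1.85 to -0.96, SE 0.21; exact permutation p = 0.00216; adjusted p = 0.0026 by limma). The pools read 166 and 78.1 units for SR-uPA+/0 and 328 and 332 units for nontransgenic RNA. Both nontransgenic pool readings lay below every single nontransgenic animal, but still above the SR-uPA+/0 pool.

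Col3a1, the type III chain found beside type I in elastic and healing tissue, read -30.8, 3.09 and 41.4 units (lowest, median and highest) in SR-uPA+/0 animals, against 64.5, 109 and 284 units in nontransgenic animals. It was below noise on 6 of 6 SR-uPA+/0 arrays and above it on 6 of 6 nontransgenic arrays. It was at least 1.48-fold lower, set against the lowest normalized signal above noise (fitted log2 difference -1.20, SE 0.23; limma adjusted p = 0.0173; exact permutation p = 0.00216). The call ended without SR-uPA+/0 animals 1 and 6 (-1.05; adjusted p = 0.0642), without a filter (adjusted p = 0.0609) and where readings under the noise limit were set to it (-1.11; adjusted p = 0.198). In the pools the tested probe read 61.5 and 47.9 units for SR-uPA+/0 and 120 and 258 units for nontransgenic RNA. Both SR-uPA+/0 pool readings lay above every SR-uPA+/0 animal, and the first exceeded noise. A second Col3a1 probe exceeded noise on 1 nontransgenic animal and was not tested. Besides Col1a2, the fibrillar chains Col5a2, Col5a3, Col2a1, Col11a1, Col11a2 and Col27a1 had no tested probe.

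**Figure D2:**
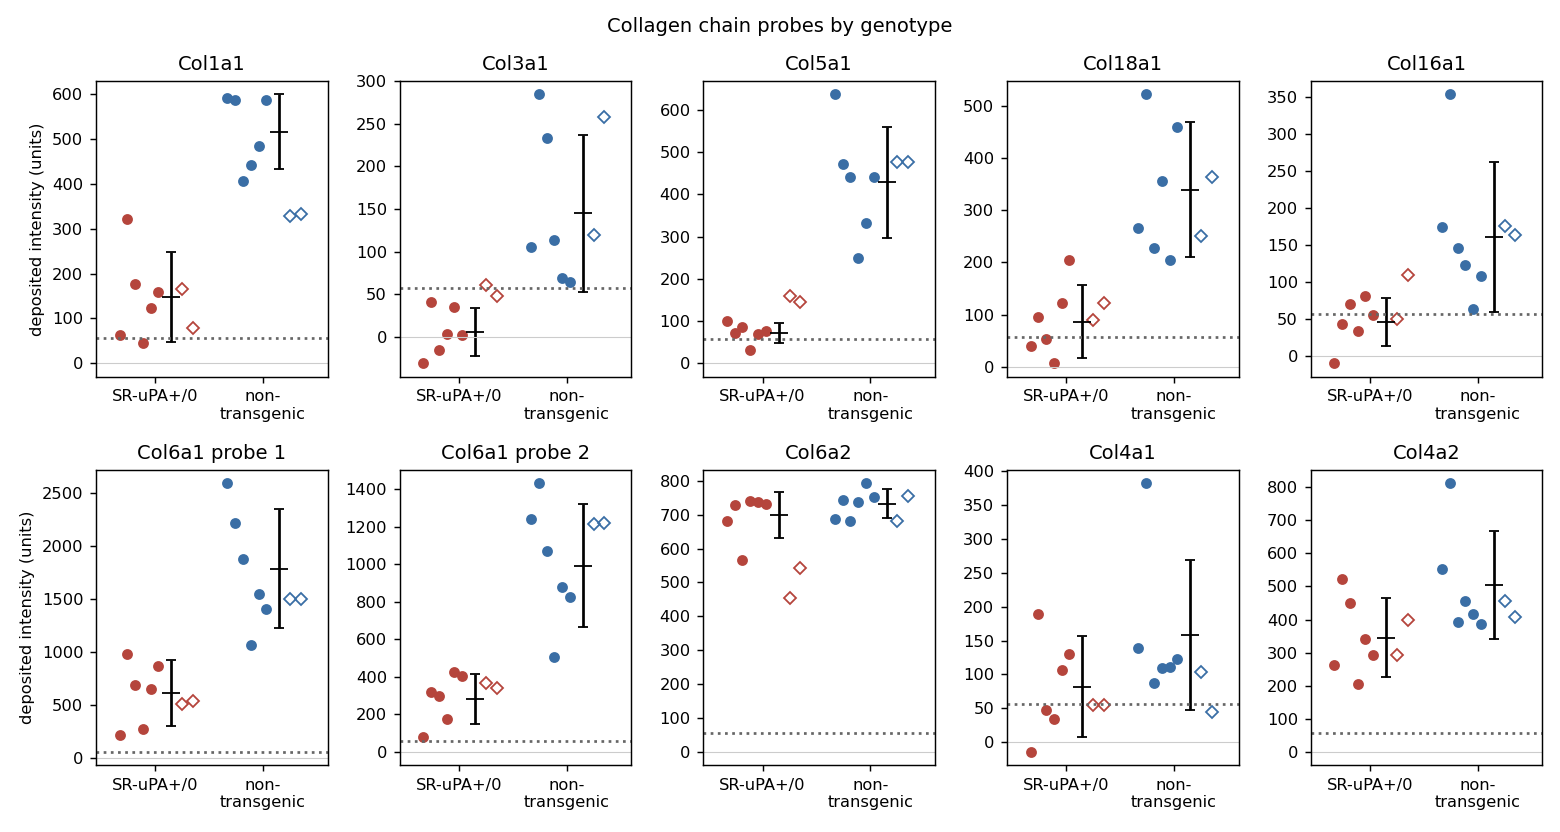
Deposited intensity in units (vertical axes, linear, each panel with its own range) of 10 collagen probes in SR-uPA+/0 (left, red) and nontransgenic (right, blue) animals; filled points are animals, the bar is mean ± SD (n = 6), open diamonds are the 2 hybridisations of each pool, and the dotted line is the noise limit. The 6 SR-uPA+/0 animals lie below all 6 nontransgenic animals for Col1a1, Col3a1, Col5a1, Col18a1 and both Col6a1 probes, whereas the groups overlap for Col6a2, Col4a1, Col4a2 and Col16a1.

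The beaded filament chains gave unlike results. Type VI collagen is assembled from different chains, of which Col6a1 and Col6a2 are obligate partners. The first Col6a1 probe read 214, 671 and 978 units (lowest, median and highest) in SR-uPA+/0 animals, against 1067, 1714 and 2591 units in nontransgenic animals. The second read 78.5, 309 and 424 units in SR-uPA+/0 animals, against 508, 977 and 1434 units in nontransgenic animals. All readings exceeded noise and neither probe showed overlap, so the decrease did not rest on dim values. The log2 differences were -1.50 (SE 0.29; limma adjusted p = 0.0188) and -1.55 (SE 0.26; adjusted p = 0.00712), with an exact permutation p of 0.00216 for each. The first probe lost its call without SR-uPA+/0 animal 4 (adjusted p = 0.0538), without nontransgenic animal 2 (0.0585), without a filter (0.0631) and where readings under the noise limit were set to it (0.0534), and the second kept it in these fits. Another Col6a1 probe exceeded noise on no animal.

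Col6a2 behaved differently. It read 567, 731 and 741 units (lowest, median and highest) in SR-uPA+/0 animals, against 681, 739 and 793 units in nontransgenic animals. The ranges overlapped, all 12 readings lay well above noise, and the log2 difference was -0.06 (95% interval -0.27 to 0.14, SE 0.10; exact permutation p = 0.327; adjusted p = 0.902 by limma). This interval ended above the intervals of the Col6a1 probes, the nearer of which reached up to -0.89. The difference between these chains, a comparison chosen after the values were seen, was tested as the within-array log2 value of Col6a1 minus Col6a2. For the first Col6a1 probe it averaged -0.31 ± 0.76 in SR-uPA+/0 and 1.13 ± 0.48 in nontransgenic animals (SD, n = 6 each; exact permutation p = 0.00216, or 0.00325 adjusted over 3 pairs). For the second it averaged -1.15 ± 0.60 and 0.34 ± 0.50 (the same p), and only the shift between genotypes, not the level of such a value, has a meaning here. Col6a1 by itself already split the genotypes and Col6a2 varied little, so this lowest possible p followed from the choice of the pair. The adjustment over 3 pairs does not cover that choice, and the p adds no evidence. In the pools, however, Col6a2 read 455 and 543 units for SR-uPA+/0 and 682 and 754 units for nontransgenic RNA. Both SR-uPA+/0 pool readings lay below every SR-uPA+/0 animal, so the animals and the pools gave different pictures for this chain.

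**Figure D3:**
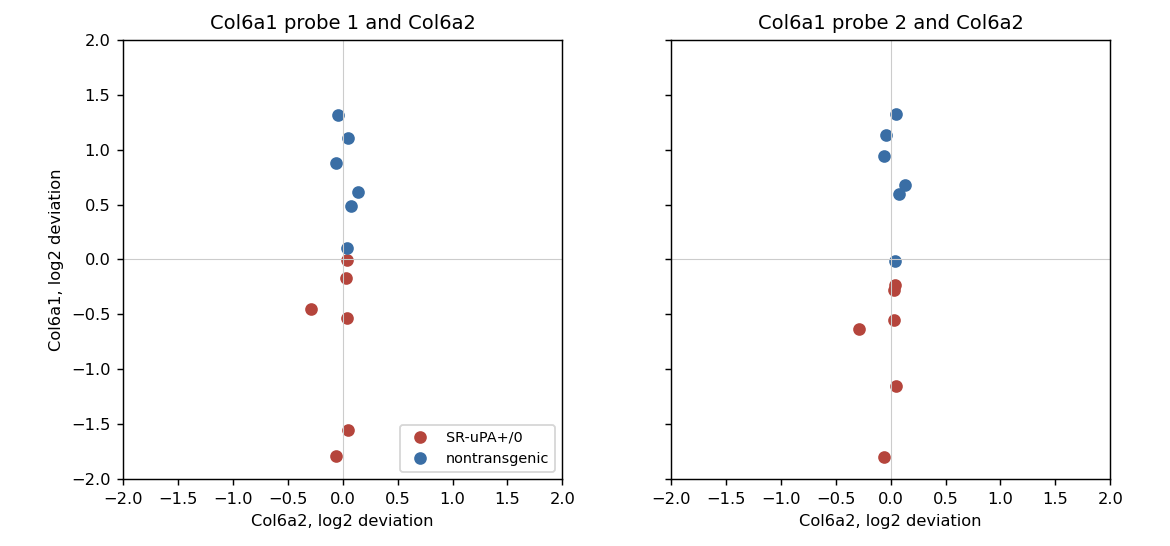
Log2 deviation from the mean of the 12 animals of each Col6a1 probe (vertical axes) against that of Col6a2 (horizontal axes, same scale), 1 point per animal, SR-uPA+/0 in red and nontransgenic in blue. The points form a near-vertical band: Col6a1 separates the genotypes while Col6a2 stays within 0.29 below and 0.13 above its mean.

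Of 4 tested basement membrane chains only Col18a1 passed. Col18a1, a basement membrane collagen whose end piece is released as endostatin, read 7.29, 74.4 and 203.9 units (lowest, median and highest) in SR-uPA+/0 animals, against 204.9, 311 and 521 units in nontransgenic animals. The groups met without overlapping, SR-uPA+/0 animal 6 lying just under nontransgenic animal 5, and 3 of 6 SR-uPA+/0 readings exceeded noise. The log2 difference was -1.28 (95% interval -1.77 to -0.78, SE 0.24; exact permutation p = 0.00216; adjusted p = 0.014 by limma). A second Col18a1 probe exceeded noise on no animal.

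Col4a1 and Col4a2, the chains of the common type IV network, are transcribed head to head from a shared promoter region. Col4a2 read 204, 317 and 523 units (lowest, median and highest) in SR-uPA+/0 animals, against 388, 436 and 812 units in nontransgenic animals, a log2 difference of -0.45 (adjusted p = 0.505 by limma, SE 0.19). Col4a1 read -14.3, 77.4 and 190 units in SR-uPA+/0 animals, against 88.0, 117 and 382 units in nontransgenic animals, a log2 difference of -0.54 (SE 0.27; adjusted p = 0.62). The genotypes overlapped for both genes and neither passed. Their within-array difference moved by -0.10 between genotypes (exact permutation p = 0.68, also after adjustment over 3 pairs), with SDs of 0.53 in SR-uPA+/0 and 0.21 in nontransgenic animals. Col15a1, a vessel-associated basement membrane collagen, had a log2 difference of -0.18 (SE 0.13; adjusted p = 0.779). Col4a3, Col4a4, Col4a5 and Col4a6 had no tested probe.

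None of the 5 tested members of the mixed class of other collagens passed. Col16a1, a fibril-associated collagen, came nearest. It read -9.57, 49.8 and 81.5 units (lowest, median and highest) in SR-uPA+/0 animals, against 63.2, 135 and 353 units in nontransgenic animals, with SR-uPA+/0 animals 3 and 5 above the lowest nontransgenic one. The log2 difference was -0.81 (SE 0.22; limma adjusted p = 0.128; exact permutation p = 0.00649). Col10a1, the short-chain collagen of hypertrophic cartilage, Col14a1, which is fibril-associated, and Col28a1 had log2 differences of 0.11, 0.21 and 0.12 (limma adjusted p of 0.82 to 0.851), and Col17a1 had -0.08 (adjusted p = 0.913). No animal read above 122 units for any of these 4 probes. The cartilage chains Col9a1, Col9a2 and Col9a3 and the vascular and corneal chains Col8a1 and Col8a2 had no tested probe.

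Across animals, the extremes of the 6 called probes, of which 2 belong to Col6a1, fell on few animals within each genotype. SR-uPA+/0 animals 1 and 4 held the lowest reading of their genotype for 3 probes each, although animal 1 was the highest for Col5a1, and SR-uPA+/0 animal 2 held the highest for 3. Among nontransgenic animals, 1 and 2 held the highest reading for 3 each, and animal 4 the lowest for 3. The mean log2 deviation over the 6 probes ran from -1.26 in SR-uPA+/0 animal 1 to -0.30 in SR-uPA+/0 animal 2, against 0.35 in nontransgenic animal 4 to 1.13 in nontransgenic animal 2. The probes share the arrays and were chosen for their difference, so this spread within genotypes is a description.

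**Figure D4:**
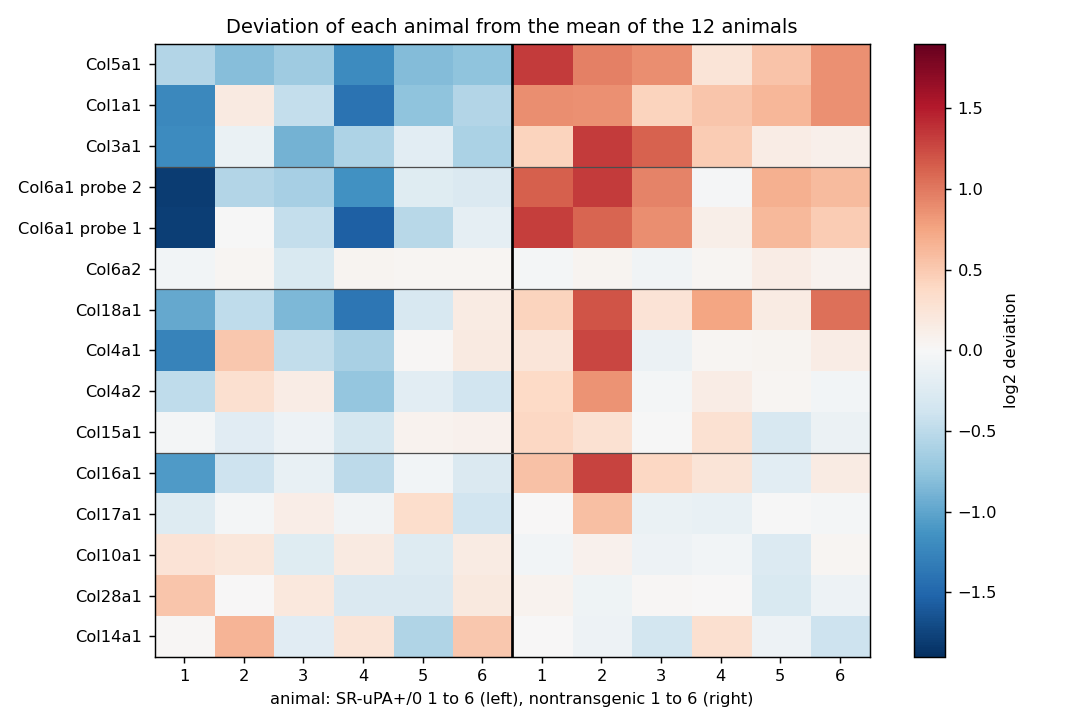
Log2 deviation of each animal from the mean of the 12 animals for the 15 tested collagen probes (rows, grouped by class, in the order fibrillar, beaded filament, basement membrane and other), with SR-uPA+/0 animals 1 to 6 left of the black line and nontransgenic animals 1 to 6 right of it. SR-uPA+/0 animal 1 reaches -1.79 and -1.80 for the Col6a1 probes, and nontransgenic animal 2 reaches 1.26 for Col4a1 and 1.33 for Col3a1.

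Fibroblast markers included 2 that fell and others that did not pass. Of 13 on the array, none of them a collagen, 8 were tested and 2 were called lower, against 0.747% of all tested genes, namely Serping1 (log2 difference -1.06; limma adjusted p = 0.0209) and Fbln2 (-1.17; adjusted p = 0.0399), although another Fbln2 probe had a difference of -0.01. Serping1 lost its call in 4 and Fbln2 in 8 of the 12 fits that left out 1 animal (adjusted p up to 0.067 and 0.121). None was called higher, and Lum, Fbln1 and Gsn exceeded noise on no animal. Of the 8 tested, 6 had differences below 0, with a median of -0.90 over the 8, against 0.01 over all tested genes. Among these 6, Pdgfra had -1.19 (limma adjusted p = 0.102) and Mgp -0.74 (adjusted p = 0.404). The other 2, Pi16 (0.29; limma adjusted p = 0.69) and Dpt (0.09; adjusted p = 0.891), had differences above 0. Pi16 exceeded noise on 4 SR-uPA+/0 and 0 nontransgenic animals. The summed intensity of the tested fibroblast markers ran from 927 to 5201 units in SR-uPA+/0 animals and from 5310 to 11767 units in nontransgenic animals. SR-uPA+/0 animal 1 had the lowest sum and animal 2 the highest of their genotype, and nontransgenic animal 2 had the highest of all. These animals also held both ends of the collagen deviations for SR-uPA+/0 and the upper end for nontransgenic mice. At the lower nontransgenic end the animals differed. Animal 3 had the lowest sum (5310 units) with a deviation of 0.75, and animal 4 the lowest deviation (0.35) with a sum of 6515 units. Dcn, which encodes the fibril-binding proteoglycan decorin, averaged 2005 of a mean sum of 2854 units in SR-uPA+/0 animals and 5343 of 7150 units in nontransgenic animals. Without Dcn the sums ran from 361 to 1263 units in SR-uPA+/0 animals and from 1104 to 3143 units in nontransgenic animals, so the genotypes overlapped. Its brightest probe read 362, 1859 and 3938 units (lowest, median and highest) in SR-uPA+/0 animals, against 3948, 4570 and 8624 units in nontransgenic animals, without overlap (-1.58; limma adjusted p = 0.0665), and of its other tested probes 1 passed (-1.20) and 1 did not (-0.98; adjusted p = 0.309). The part of fibroblasts in the collagen differences was not tested.

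The other marker lists gave these values. Of 11 mesothelial markers on the array 6 were tested and none was called, with sums of 636 to 1075 units in SR-uPA+/0 and 775 to 1427 units in nontransgenic animals, and Krt19, Upk1b, Lrrn4, Gpm6a and Rspo1 at no reading above noise. Of these 6, Wt1 had the difference furthest from 0 (-0.66; limma adjusted p = 0.127), and their median was -0.05. Of 7 smooth muscle and pericyte markers 1 was tested, Cspg4, and it was not called (180 to 304 units in SR-uPA+/0 and 181 to 258 units in nontransgenic animals), while Tagln, Myh11, Cnn1 and Des exceeded noise on no animal. Of 7 endothelial markers Vwf (-0.54; limma adjusted p = 0.205) and Esam (-0.33; adjusted p = 0.6) were tested and not called. Their sums ran from 1060 to 2148 units in SR-uPA+/0 and from 2223 to 2784 units in nontransgenic animals, without overlap. Kdr, Tie1 and Tek exceeded noise on no animal. The 7 tested macrophage markers, of 8 on the array, were not called, with sums of 75802 to 98075 units in SR-uPA+/0 and 81481 to 95877 units in nontransgenic animals. Of 11 neutrophil markers 8 were tested and 4 were called higher (S100a8, S100a9, Retnlg and Pglyrp1), against 0.133% of all tested genes, with sums of 12202 to 44940 units in SR-uPA+/0 and 4760 to 17947 units in nontransgenic animals. S100a8 lost its call in 10 of the 12 fits without 1 animal (limma adjusted p up to 0.119). S100a8 (adjusted p = 0.155) and S100a9 (0.0587) lost theirs without SR-uPA+/0 animals 1 and 6, and Retnlg (0.41) and Pglyrp1 (0.17) without the 5 arrays on one side of the first principal component. The 5 tested B cell markers, of 7 on the array, were not called, with sums of 635 to 984 units in SR-uPA+/0 and 426 to 717 units in nontransgenic animals. The part of these cells in the collagen differences was not tested.

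In the rest of the collagen pathway 5 genes were called, all of them lower, and most tested genes did not pass. Counted by the brightest tested probe of each gene, 0.747% of 7500 genes were called lower and 0.133% higher, and the median log2 difference over them was 0.01. Each list with a call exceeded this share of lower calls, but the lists were chosen with earlier results of these data known. In the list of folding and modification genes 1 of 16 tested members fell and none was called higher (median -0.03). The member that fell was Serpinh1, the collagen-specific chaperone HSP47, which read 173, 510 and 612 units (lowest, median and highest) in SR-uPA+/0 animals, against 1152, 1453 and 2630 units in nontransgenic animals (-1.71, SE 0.25; limma adjusted p = 0.00215). The groups did not overlap. The other 15, which include prolyl and lysyl hydroxylases, did not pass.

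Among genes of procollagen cleavage and cross-linking 1 of 7 tested members fell (median -0.19). Loxl1, which cross-links elastin and collagen, read 15.5, 140 and 190 units (lowest, median and highest) in SR-uPA+/0 animals, against 331, 358 and 965 units in nontransgenic animals (-1.39, SE 0.25; limma adjusted p = 0.0125). Lox, the related enzyme, had -0.49 (adjusted p = 0.444) and Pcolce, an enhancer of procollagen cleavage, -0.44 (adjusted p = 0.421). Among fibril partners and bound matrix proteins 1 of 11 tested members fell (median -0.24). Hspg2, perlecan, a proteoglycan of basement membranes, read 95.2, 250 and 308 units in SR-uPA+/0 animals, against 328, 617 and 854 units in nontransgenic animals (-1.16, SE 0.21; limma adjusted p = 0.0126). Loxl1 and Hspg2 both separated the genotypes without overlap. So did 2 fibril partners that did not pass, Bgn (-0.68; limma adjusted p = 0.0581) and the brightest Dcn probe (-1.58; adjusted p = 0.0665). For Bgn 3 of 6 SR-uPA+/0 readings exceeded noise. Another Dcn probe passed (-1.20; limma adjusted p = 0.0265). Of the 11 tested fibril partners and bound matrix proteins 7 had differences below 0.

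No collagen receptor passed, and 1 breakdown gene did. None of 8 tested receptors was called (median 0.01), the smallest p belonging to the collagen-activated kinase Ddr1 (-0.41; limma adjusted p = 0.359) and to Antxr1 (-0.35; adjusted p = 0.475). Among breakdown genes and their inhibitors 1 of 13 tested members fell (median -0.08). It was the matrix-bound inhibitor Timp3, not a protease, which read 133, 225 and 338 units (lowest, median and highest) in SR-uPA+/0 animals, against 387, 411 and 545 units in nontransgenic animals (-0.78, SE 0.15; adjusted p = 0.0213). The list of ligands and factors that act on collagen genes also holds latent TGF-beta binding family members, and 1 of its 15 tested members fell (median -0.01). It was Ltbp2, a microfibril protein of the latent TGF-beta binding family, with -1.51 (SE 0.31; adjusted p = 0.0267), and 3 of its 6 SR-uPA+/0 readings exceeded noise. No tested ligand, receptor or transcription factor of this list was called. Tgfb1 had 0.62 (limma adjusted p = 0.421) and Tgfb2 -0.38 (adjusted p = 0.291). Timp3 lost its call without SR-uPA+/0 animal 3, 4 or 5 or nontransgenic animal 1 or 2 (adjusted p up to 0.0664), and Ltbp2 without SR-uPA+/0 animal 3 or 4 or nontransgenic animal 1, 2 or 6 (up to 0.0861). Of these 5 genes Serpinh1 alone kept its call without the 5 arrays on one side of the first principal component.

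**Figure D5:**
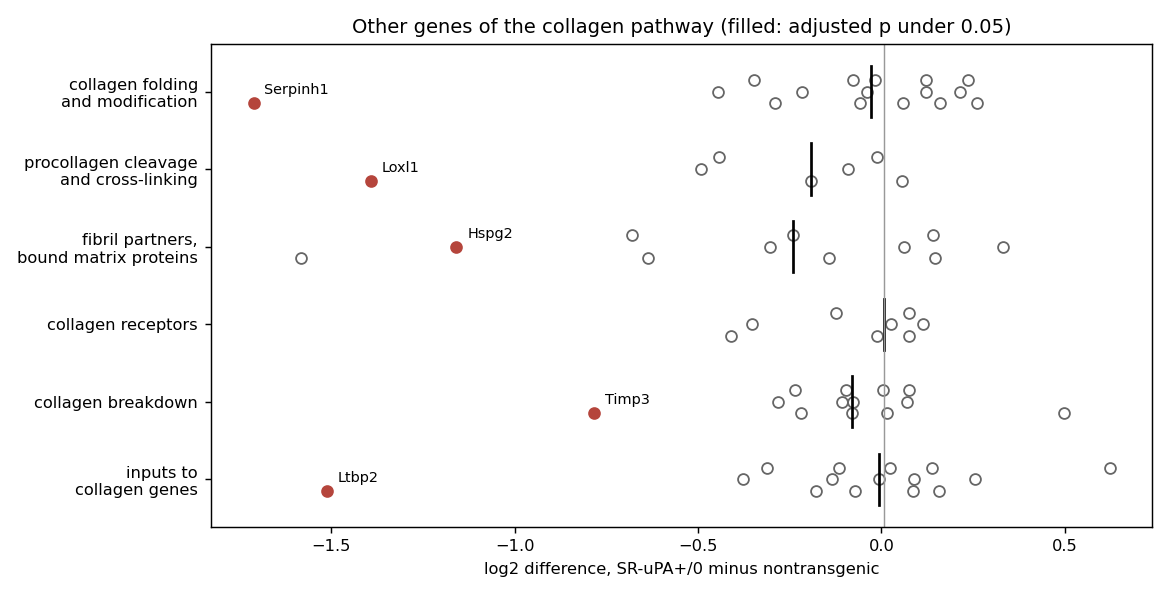
Log2 difference, SR-uPA+/0 minus nontransgenic, of every tested gene (brightest probe) in 6 lists of the collagen pathway; filled red points had an adjusted p under 0.05 and carry the gene's name, black bars are list medians and the grey line is the median of all 7500 tested genes. In each of 5 lists 1 filled point lies left of 0, and the collagen receptor list has none.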

How the data were processed

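RNA of 12 animals (6 per genotype) and 4 pool arrays was measured. The authors deposited linear intensity values. The submitters' processing notes name BeadStudio, without a version. These intensities run below 0 and share their quartiles across arrays, so background had been subtracted and arrays normalized by methods not given there. The 32 columns of a second table match no label and were not used, detection p-values included. Gene symbols came from the platform annotation.

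Intensities were passed through limma's normexp (saddle, offset 16), which added 96.9 units to a typical value. Quantile normalization across the 12 animals and log2 transformation followed. The noise limit replaced detection p-values. Genotypes were compared by lmFit and eBayes of limma 3.58.1 (R 4.3.3; two-sided; Benjamini-Hochberg over all 10521 tested probes; threshold 0.05), and for single values by exact permutation, two-sided, over the 924 ways to assign the animals. Intervals are at 95%. The fit was tested on simulated data. The number of arrays limits the precision, and depth has no counterpart beyond signal over noise. Nothing in the labels says that animals were separate litters or days. Where all readings of a genotype were below noise, the fold is a lower bound.

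The collagen probes, their classes and the gene lists were chosen with earlier results of these data known, so their counts carry no test of the list. Named were all tested collagen probes and some of the untested ones, the rest entering by counts. From each pathway list the members past the threshold, or else those with the smallest p, were named. From the marker lists, members past the threshold and some below noise were named, and for smooth muscle and endothelial cells the tested members. Dcn, Bgn, Pdgfra, Mgp, Pi16, Dpt, Wt1, Lox, Pcolce, Tgfb1, Tgfb2 and the pairs of chains were added after their values were seen. In the gene lists the brightest tested probe represents its gene. Alternatives covered the background step, normalization, filter, noise limit, variance model, test and arrays used (statmod 1.5.0 for array weights).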

Additional observations from a re-analysis of the deposited data

Results flagged for a closer look

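Single animals far from the rest of their genotype were sought in 30 sets of 6 log2 values, 15 probes by 2 genotypes, where chance marks about 1 set in 20. There were 3. Nontransgenic animal 2 read 382 units for Col4a1, and the next highest nontransgenic animal read 139. The same animal read 115 units for Col17a1, and the next read 47.1. SR-uPA+/0 animal 3 read 567 units for Col6a2, and the next lowest SR-uPA+/0 animal read 681. None of these probes was called in the comparison of the genotypes.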

How the results depend on the processing

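In all, 29 other settings were tried, of which 1, leaving out the 5 arrays on one side of the first principal component, was chosen after seeing the data. No collagen probe was called higher in any of them. With the 6 lower calls as the starting point, 26 of 29 settings gave 4 to 6, 2 were called among the 4 probes above noise on all 12 animals, 0 by the exact Mann-Whitney test, whose smallest adjusted p was 0.202 for these probes, and 1 without the 5 arrays. Leaving out 1 animal gave 5 or 6. The Mann-Whitney p cannot fall below 0.00216 with 6 animals per genotype, and after adjustment no probe of the array passed. Its count of 0 therefore reflects the floor of that test and does not weigh on single probes. Probes without overlap numbered 2 among those above noise on all animals and 5 to 7 otherwise. Tested collagen probes numbered 53 with no filter and 4 with the filter on all 12 animals. The median log2 difference of the tested collagen probes was -0.54, against -0.076 with no filter, -0.97 with the filter on all 12 animals, -1.004 with a filter on the mean and -1.20 with the noise limit at 2.5 times the root mean square, settings that change which probes enter. Lower calls among all probes were 35 with no filter, 28 above noise on all animals, 0 by Mann-Whitney and 9 without the 5 arrays, and 34 to 78 when 1 animal was left out (34 without nontransgenic 2, 39 without SR-uPA+/0 4). Higher calls were 7, 5, 0 and 6 in these settings, 7 without SR-uPA+/0 1 and 6, and 6 to 15 when 1 animal was left out (6 without SR-uPA+/0 4, SR-uPA+/0 5 or nontransgenic 6, and 7 without SR-uPA+/0 3, nontransgenic 2 or nontransgenic 3). Calls among the pathway lists were 5, against 3 with no filter, 3 above noise on all animals, 0 by Mann-Whitney, 1 without the 5 arrays and 3 to 7 when 1 animal was left out (3 without SR-uPA+/0 3, SR-uPA+/0 4, nontransgenic 1 or nontransgenic 2). Col28a1 (-0.022) and Col17a1 (0.046), neither of them called, changed sign without SR-uPA+/0 1 and 6. Where construction does not show it, the cause was not tested. No paired analysis was possible because the animals' numbers only name them in each genotype, and no label ties a number to a litter, batch or day. Chains at or near noise cannot be said to be absent.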

Other observations

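The pools can be set beside the animals whose RNA they held. For all 6 called collagen probes both SR-uPA+/0 pool readings lay below both nontransgenic pool readings, as they did for 9 of the 15 tested probes. Of 30 readings of the SR-uPA+/0 pool, 3 lay below every SR-uPA+/0 animal and 6 above every one, and of 30 of the nontransgenic pool 4 lay below and 0 above every nontransgenic animal. Col5a1 is an example, with 159 and 146 units in the SR-uPA+/0 pool and at most 101 units in any SR-uPA+/0 animal.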
